A study of Arabidopsis thaliana with 27 samples.

Results

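The leaf transcriptome of *35S::AtTOR* plants was compared between plants re-watered after a drought and plants still under that drought. The question was which genes differed in level 4 days after water returned. The 6 leaf samples of this comparison, 3 re-watered and 3 drought, were taken out of 27 in the series, and a gene entered the comparison when its mean was at least 10 normalized counts in either group. This rule kept 17941 of the 34218 genes in the table. Among them, 917 genes reached that mean in re-watered leaves alone and 417 in drought leaves alone.

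*35S::AtTOR* plants are *Arabidopsis thaliana* Columbia-0 plants that carry the full-length coding sequence of Target of Rapamycin (*AtTOR*) behind the CaMV 35S promoter, which is active in nearly all plant cells. Homozygous lines of the same construct were combined, and which line gave which sample was not given in the sources used here. Re-watered leaves came from *35S::AtTOR* plants that had 11 days without water, between 27 and 38 days after germination (DAG), and then 4 days with water. Drought leaves came from *35S::AtTOR* plants under the same withholding of water, and well-watered *35S::AtTOR* leaves (3 samples) are used below as a level to read against. The 4 days with water also made the re-watered plants older, so plant age and treatment cannot be told apart. A further 2 genotypes serve for contrast, each with 3 re-watered and 3 drought samples: *GC::AtTOR*, in which a guard cell promoter from tobacco drives the same coding sequence, and the wild type (WT), Columbia-0 without a transgene. The labels place all samples in batch 1 and give neither the hour of sampling nor the day length of the RNA-seq plants.

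When soil dries, leaves accumulate abscisic acid (ABA), a hormone that closes stomata and switches on genes for protective proteins and compatible solutes. ABA binds PYR/PYL receptors, the receptors hold back the clade A PP2C phosphatases, and SnRK2 kinases are then free to activate bZIP factors at ABA-responsive promoters. Return of water is known to reverse many of these steps, through breakdown of ABA and of the proline stored during stress. TOR is a protein kinase that promotes ribosome production and growth when nutrients are plentiful, and ABA signalling and TOR are known to restrain each other.

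The other 5 libraries held 12053300 to 14888716 recovered reads, and that of *35S::AtTOR* re-watered replicate 1 held 2739872. A single read was worth 4.13 normalized counts in that library and 0.797 to 1.2 in the other recovered libraries, so its low values are coarse. Leaf identity was checked with marker lists. Of 8 flower markers, 7 stayed under the mean of 10, as did 5 of 8 root markers, among them *CASP1*, which was at 0 in 5 of the 6 samples. The normalized counts are whole-leaf values, and fewer cells of a type cannot be told apart from less RNA per cell. The p-values and standard errors rest on the spread within groups, pooled over the 27 samples of the 9 groups and not over these 6 alone. They measure spread between samples only, since nothing in the labels says that replicates were grown apart. Rescaling every sample to an equal total moved the median log2 fold change of all genes to 0.146, against 0.0127 as deposited.

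Between re-watered and drought leaves, 2134 genes were higher in re-watered leaves (11.9% of those tested) and 1643 were lower (9.16%), which makes 3777 genes in all (21.1%). A gene was called when its log2 fold change, computed on log2(normalized count + 1), was beyond 1 in either direction and its Benjamini-Hochberg adjusted p in limma was under 0.05. Every fold change below is re-watered over drought on that scale, which understates changes of low genes. All 3 re-watered values lay above all 3 drought values in 5226 genes (29.1%), and below them in 5126 genes (28.6%). In the gene groups below, measured members are those that passed the filter on the mean. Their counts are to be read against the 11.9% higher and 9.16% lower of all genes tested.

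**Figure D1:**
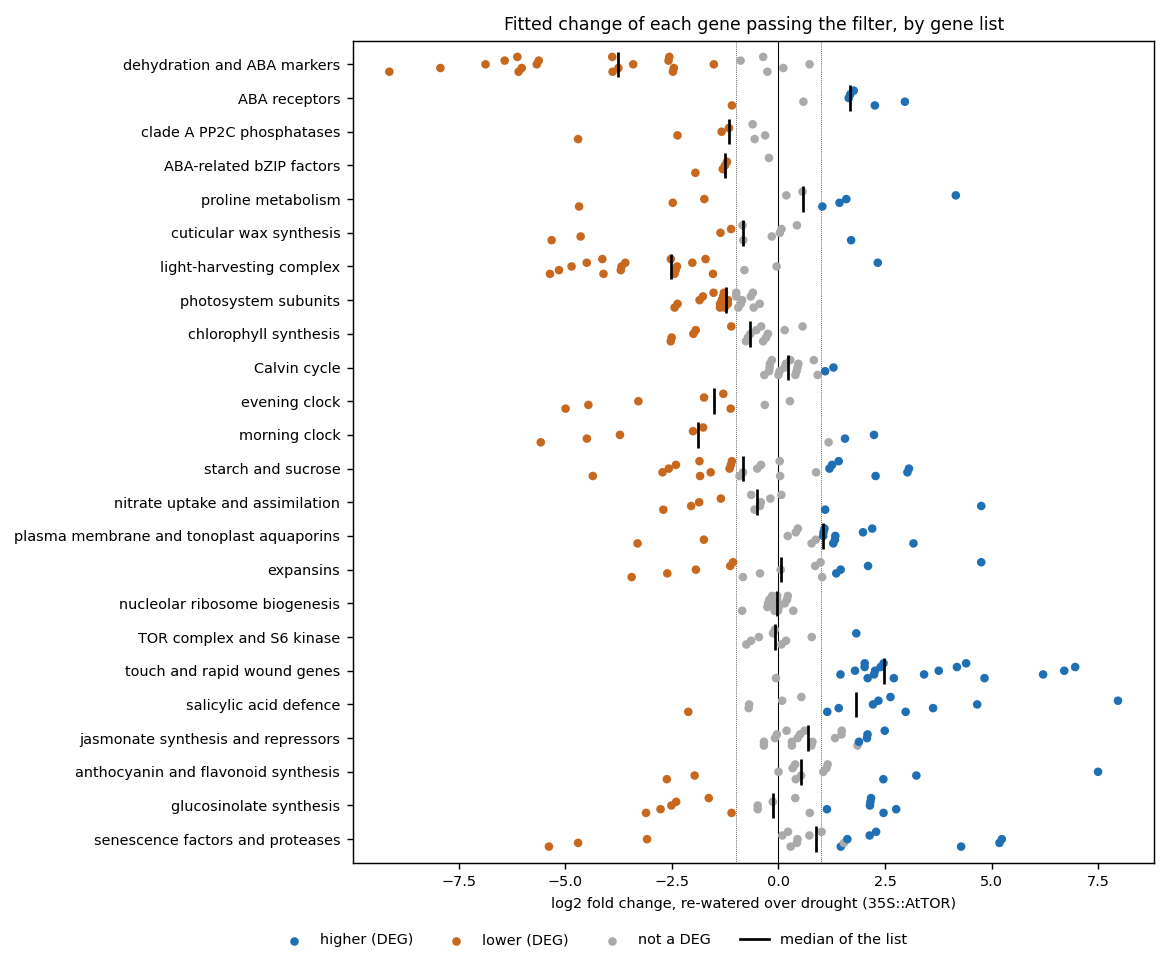
Log2 fold change of re-watered over drought *35S::AtTOR* leaves (horizontal axis) for each measured gene of the main gene groups (1 line a group, 1 point a gene). Coloured points passed the limma test, grey points did not, and the black bar is the median of the group. The dehydration group lies at a median of -3.75 and the touch group at 2.47, while the nucleolar group sits about 0.

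Genes of dehydration and ABA response had the lowest median of the groups described here. Of 23 measured members, 18 fell and none rose, with a median log2 fold change of -3.75, against 0.0127 over all genes tested. *RD29B*, a classic ABA-responsive gene of unknown biochemical role, had 33.1, 9.27 and 6.92 normalized counts in re-watered leaves, against 6084, 5068 and 15593 in drought leaves. The re-watered and drought values of *RD29B* were far apart, with no overlap, at a log2 fold change of -9.12 with a standard error of 0.54 (adjusted p = 1.55e-11). *RAB18*, a dehydrin, had 277, 159 and 123 normalized counts in re-watered leaves, against 12943, 15174 and 44870 in drought leaves. Its drought values were highest in drought replicate 3 and lay far above all re-watered values, at a log2 fold change of -6.87 with a standard error of 0.48 (adjusted p = 1.95e-10).

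*RD29A*, which answers to cold and drought through CBF/DREB factors as well as to ABA, had 752, 527 and 559.7 normalized counts in re-watered leaves, against 40195, 38746 and 48359 in drought leaves. The 3 re-watered samples were close to each other and far below the drought samples, at a log2 fold change of -6.12 with a standard error of 0.20 (adjusted p = 3.45e-16). Well-watered *35S::AtTOR* leaves had 49368 ± 1775 (SD, n = 3) normalized counts of *RD29A*, as high as drought leaves, so of the 3 treatments re-watered leaves alone were low. *COR15A*, which encodes a chloroplast protein that protects membranes, followed with 4745, 4899 and 4252 normalized counts in re-watered leaves, against 58400, 71766 and 76698 in drought leaves. Its well-watered level was 54190 ± 9619 (SD, n = 3), again beside the drought values, and the log2 fold change was -3.89 with a standard error of 0.21 (adjusted p = 2.39e-12). *RD29B* and *RAB18* had well-watered means of 1209 ± 171 (SD, n = 3) and 2620 ± 883 (SD, n = 3), below their drought values and above their re-watered values.

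Late embryogenesis abundant (LEA) proteins, which shield other proteins in drying cells, moved the same way. *LEA7* had 8.27, 0.927 and 0.865 normalized counts in re-watered leaves, against 394, 531 and 2282 in drought leaves, a log2 fold change of -7.93 with a standard error of 0.80 (adjusted p = 4.54e-08). *LEA4-5* had 12.4, 3.71 and 8.65 normalized counts in re-watered leaves, against 485, 453 and 1730 in drought leaves, a log2 fold change of -6.42 with a standard error of 0.58 (adjusted p = 9.42e-09). For both genes the highest drought value was in drought replicate 3, and no re-watered value came near any drought value. The dehydrin *XERO2* had 78.5, 70.5 and 64.0 normalized counts in re-watered leaves, against 3740, 5827 and 4619 in drought leaves, at -6.02 with a standard error of 0.22 (adjusted p = 2.8e-15), and the lipid transfer protein gene *LTP3* had 178, 86.2 and 117 normalized counts in re-watered leaves, against 5310, 7056 and 15571 in drought leaves, at -6.09 with a standard error of 0.43 (adjusted p = 1.8e-10). The members that did not pass the test were *ERD14* (-0.89), *RD20* (-0.36), *ERD1* (0.73), *RD21A* (0.11) and *ATHB12* (-0.26). *KIN1* (-5.67) and *KIN2* (-1.51) are near-identical neighbours whose reads may be split between them, so their separate values are uncertain.

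Because these genes fell together, 250 bases before the transcription start of 3 of them are shown from the RefSeq genome TAIR10.1, 5′ to 3′ on the gene's strand. Capitals in *RD29B* (chr5:21236771-21237020, plus strand) and *LEA7* (chr1:19619474-19619723, plus strand) mark the ABRE core ACGTG on either strand, which is the core of the element that bZIP factors bind. Capitals in *RD29A* (chr5:21240467-21240716, plus strand) mark the DRE core CCGAC, the core of the element that CBF/DREB factors bind.
RD29B: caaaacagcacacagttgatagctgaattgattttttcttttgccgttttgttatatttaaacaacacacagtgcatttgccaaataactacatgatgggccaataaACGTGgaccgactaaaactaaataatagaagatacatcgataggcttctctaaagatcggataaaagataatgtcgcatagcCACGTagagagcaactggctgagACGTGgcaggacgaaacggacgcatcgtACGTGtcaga
LEA7: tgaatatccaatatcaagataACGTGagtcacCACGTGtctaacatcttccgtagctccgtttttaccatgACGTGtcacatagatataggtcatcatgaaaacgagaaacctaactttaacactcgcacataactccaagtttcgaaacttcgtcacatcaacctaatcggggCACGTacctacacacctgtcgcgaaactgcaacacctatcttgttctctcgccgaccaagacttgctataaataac
RD29A: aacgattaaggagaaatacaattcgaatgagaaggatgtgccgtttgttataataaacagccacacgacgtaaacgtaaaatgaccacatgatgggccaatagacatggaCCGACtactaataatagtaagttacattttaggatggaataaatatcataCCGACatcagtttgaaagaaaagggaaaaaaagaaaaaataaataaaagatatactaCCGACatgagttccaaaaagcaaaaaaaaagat
The *RD29B* window held 4 ABRE cores and the *LEA7* window 5, of which 2 overlap as both strands of CACGTG. The *RD29A* window held 3 DRE cores. Each window was marked for a single motif, and the *RD29B* and *LEA7* windows also hold CCGAC, left in small letters. Over 27443 protein-coding promoters of the same length, 22.9% held at least 1 ABRE core and 12% at least 1 DRE core. In the dehydration group it was 12 of 24 promoters for the ABRE core and 8 of 24 for the DRE core, while the ABRE core was also in 8 of 20 promoters of the light-harvesting group. These are letter matches, and binding was not measured.

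**Figure D2:**
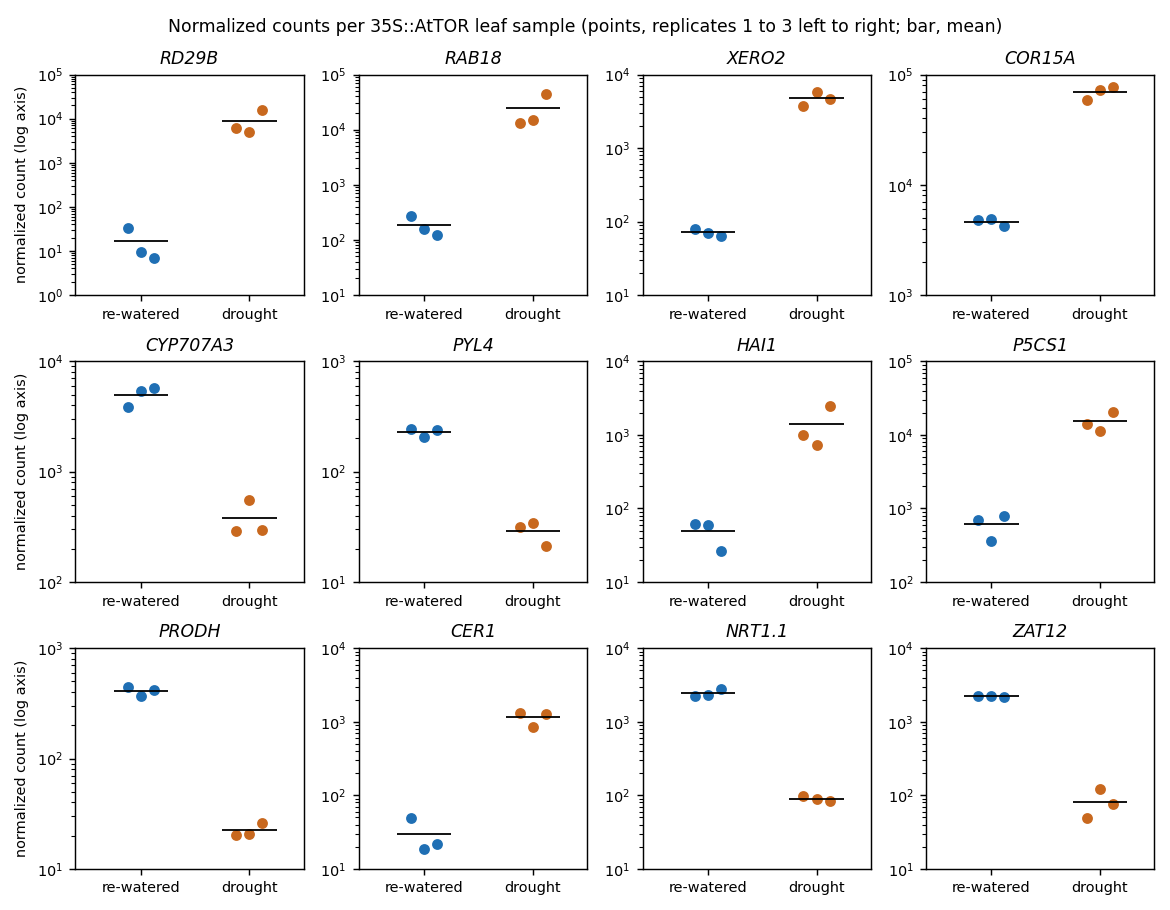
Normalized counts (logarithmic axes) of 12 genes in the 3 re-watered and the 3 drought *35S::AtTOR* samples, re-watered on the left. Points are samples and lines are means: *RD29B* and *RAB18* stand lower in all 3 re-watered samples, and *NRT1.1* and *PRODH* higher.

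Upstream of these targets, most measured ABA receptor genes rose, most phosphatase and bZIP factor genes fell, and of 4 ABA hydroxylase genes 1 rose and 1 fell. *CYP707A3*, an ABA 8′-hydroxylase that inactivates the hormone, had 3819, 5425 and 5691 normalized counts in re-watered leaves, against 292, 557 and 298 in drought leaves. All 3 re-watered samples were above all 3 drought samples, and also above the well-watered mean of 1104 ± 413 (SD, n = 3), with a log2 fold change of 3.74 with a standard error of 0.45 (adjusted p = 6.24e-07). Its relative *CYP707A2* had 45.5, 12.1 and 29.4 normalized counts in re-watered leaves, against 102, 49.8 and 99.8 in drought leaves. This was a fall with no overlap, at -1.61 with a standard error of 0.52 (adjusted p = 0.0118), though the call was lost without re-watered replicate 2 (-1.10). *CYP707A1* (0.25) and *CYP707A4* (-0.69) did not pass the test, and the median of the 4 genes was -0.22. Among 6 measured genes of ABA synthesis and release, *ABA1*, the zeaxanthin epoxidase, was among 2 that fell (-1.68), or 1 without re-watered replicate 2. *BGLU18*, which frees ABA from its glucose ester, was the 1 that rose (2.43), and *NCED3*, which catalyses the committed step, was at -0.53 with a standard error of 0.38 (adjusted p = 0.245).

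Of 7 measured ABA receptor genes, 5 rose and 1 fell, with a median of 1.69. *PYL4* had 244, 206 and 239 normalized counts in re-watered leaves, against 31.5, 34.2 and 21.3 in drought leaves, a log2 fold change of 2.97 with a standard error of 0.23 (adjusted p = 6.58e-10). The 3 re-watered samples differed little and were all several times higher than any drought sample. *PYL8* (2.26), *PYR1* (1.69) and *PYL1* (1.65) also rose. *PYL7* fell by 1.09 on the log2 scale, close to the floor of 1, and lost its call when re-watered replicate 1 was left out (-0.96) and when drought replicate 1 was (-0.94). The clade A PP2C phosphatases went the other way, with 4 of 7 lower, none higher and a median of -1.16. *HAI1* had 62.0, 59.3 and 25.9 normalized counts in re-watered leaves, against 984, 738 and 2458 in drought leaves, a log2 fold change of -4.7 with a standard error of 0.59 (adjusted p = 9.44e-07), and no re-watered sample reached any drought sample. *HAI2* (-2.37) and *ABI2* (-1.33) fell as well. Among 5 bZIP factors of the pathway, 4 fell, *ABF3* most (-1.95), and *ABF4* did not pass (-0.22).

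CBF/DREB factors split by member. *CBF3* (-4.72) and *DREB2C* (-4.41) fell and *CBF2* (1.46) rose, and over the 9 measured members 2 rose, or 1 without re-watered replicate 2 or drought replicate 1, and 4 fell. Proline, a compatible solute, is made by P5CS enzymes and broken down in mitochondria by proline dehydrogenase. *P5CS1* had 698, 358 and 776 normalized counts in re-watered leaves, against 13864, 11328 and 20679 in drought leaves, a log2 fold change of -4.67 with a standard error of 0.35 (adjusted p = 5.53e-10). *PRODH* had 446, 373 and 419.5 normalized counts in re-watered leaves, against 20.1, 20.5 and 26.2 in drought leaves, a log2 fold change of 4.16 with a standard error of 0.25 (adjusted p = 2.21e-11). Thus *P5CS1* was low and *PRODH* high in every re-watered sample with no overlap, and the well-watered mean was 3261 ± 1462 (SD, n = 3) for *P5CS1* and 18 ± 3.57 (SD, n = 3) for *PRODH*. The bZIP factor gene *bZIP11* (1.59) rose with *PRODH*. *P5CDH*, the enzyme after proline dehydrogenase, fell instead (-1.74).

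Factors of the bZIP11 and bZIP53 group are known to bind ACTCAT in the promoter of *PRODH*. The 250 bases before the start of *PRODH* (chr3:12451557-12451806, minus strand, TAIR10.1) are therefore shown, with that hexamer in capitals.
PRODH: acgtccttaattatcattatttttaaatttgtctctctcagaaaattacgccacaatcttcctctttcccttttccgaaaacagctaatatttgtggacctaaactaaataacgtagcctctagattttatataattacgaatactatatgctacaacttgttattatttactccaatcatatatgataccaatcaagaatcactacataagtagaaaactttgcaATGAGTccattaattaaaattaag
The window held 1 match, on the opposite strand, and 12.3% of all promoters of this length held at least 1.

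Protective sugars and surface wax fell in part. Among 6 measured genes of galactinol and raffinose synthesis, 3 fell and none rose, led by the raffinose synthase *RS5* (-3.66). *CER1*, which makes the alkanes of the leaf wax, had 49.6, 18.5 and 21.6 normalized counts in re-watered leaves, against 1320, 844 and 1271 in drought leaves, a log2 fold change of -5.32 with a standard error of 0.30 (adjusted p = 5.09e-12). All re-watered samples of *CER1* lay far under the drought samples. Of 11 measured wax genes 4 fell, and *KCS1*, a fatty acid elongase, rose (1.7). For the wax ester synthase gene *WSD1*, re-watered leaves held 3 reads in all and drought leaves were 36.6-fold higher (95% exact interval 12.3 to 179.6, counting error only).

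Most measured clock genes of both the evening and the morning phase fell, and 2 morning genes rose. In plants, morning factors such as CCA1 repress evening genes through the evening element, and evening proteins repress the morning genes in turn, so that levels depend on the hour. *GI*, an evening gene that links the clock to flowering, had 95.1, 104 and 96.9 normalized counts in re-watered leaves, against 3174, 3238 and 3087 in drought leaves. The drought and re-watered samples of *GI* were each tightly grouped and far apart, at a log2 fold change of -4.99 with a standard error of 0.13 (adjusted p = 9.72e-18). Well-watered *35S::AtTOR* leaves had 3948 ± 305 (SD, n = 3) normalized counts of *GI*, close to drought leaves. Of 8 evening genes 6 fell and none rose, with *PRR5* at -4.46, *LUX* at -3.28 and *ELF4* at -1.74, and a median of -1.52.

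Of 8 measured morning genes, 5 fell and 2 rose. *LNK1* fell most (-5.57), followed by *PRR7* (-3.72) and *CCA1* (-2.0), and *RVE8* rose (2.24) together with *RVE4* (1.56). *PRR9* held 3 reads over the re-watered group and was 28.3-fold higher in drought leaves (95% exact interval 9.45 to 139.4). With a mean of at least 50 required, 3 morning genes were lower. The median of the evening group was -1.20 in *GC::AtTOR* and -1.27 in WT, and that of the morning group -2.59 in *GC::AtTOR* and -2.23 in WT. Treatment and hour of sampling cannot be told apart from these files, and the part of the clock in the other results was not tested. The promoter of *LUX*, an evening gene that fell (chr3:17182792-17183041, plus strand, TAIR10.1), is shown with the evening element AAATATCT in capitals on either strand.
LUX: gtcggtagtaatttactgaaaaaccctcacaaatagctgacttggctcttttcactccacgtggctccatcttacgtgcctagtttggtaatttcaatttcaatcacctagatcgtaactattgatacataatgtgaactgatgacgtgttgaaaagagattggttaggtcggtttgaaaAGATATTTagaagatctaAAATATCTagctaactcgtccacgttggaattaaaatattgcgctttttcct
It held 2 matches. The element was in 5 of 8 evening clock promoters, against 4.79% of all promoters.

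**Figure D3:**
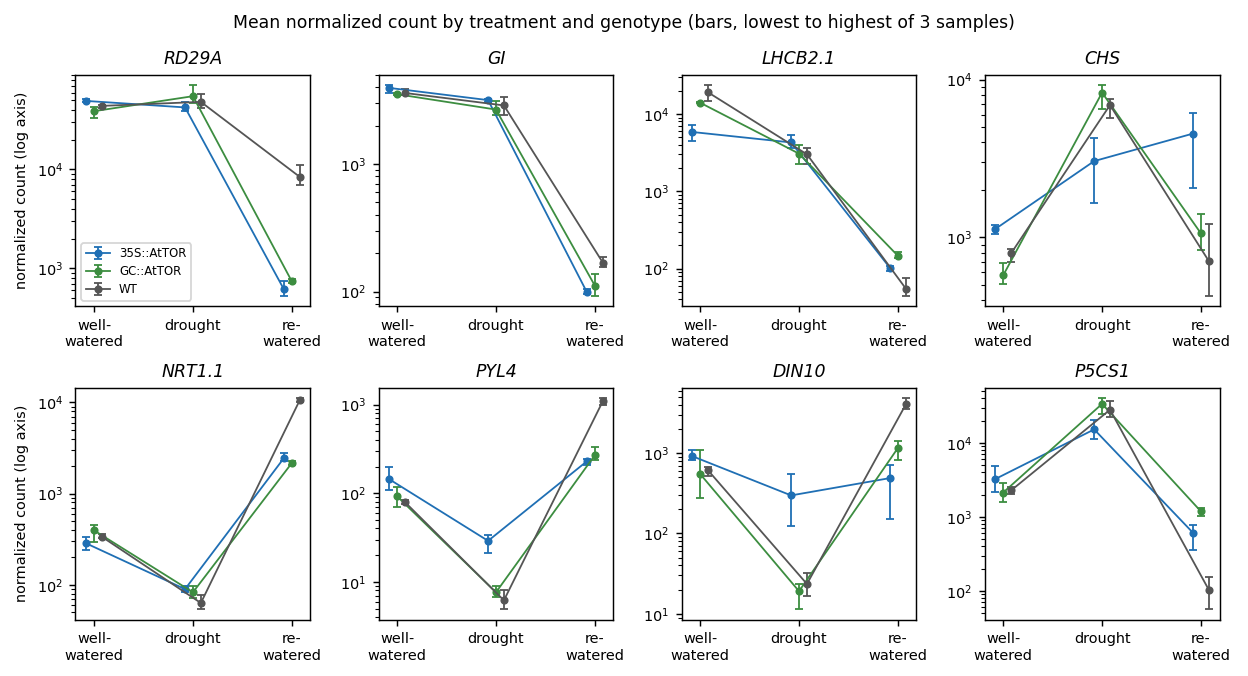
Group means of normalized counts (logarithmic axes; bars run from the lowest to the highest of 3 samples) for 8 genes in well-watered, drought and re-watered leaves, 1 line each for *35S::AtTOR*, *GC::AtTOR* and WT. *RD29A* and *GI* are as high in well-watered as in drought *35S::AtTOR* leaves and low in re-watered leaves, and *NRT1.1* is high in re-watered leaves.

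Most genes for the light-harvesting antenna were lower in re-watered leaves. These nuclear genes encode chlorophyll-binding proteins around both photosystems, and light, the clock and sugar are all known to set their levels. Of 19 measured members 16 fell and 1 rose, with a median of -2.52. *LHCB2.1*, an antenna protein of photosystem II, had 107, 92.7 and 106 normalized counts in re-watered leaves, against 3858, 5374 and 3619 in drought leaves. Every re-watered sample was far below every drought sample, at a log2 fold change of -5.36 with a standard error of 0.23 (adjusted p = 9.2e-14), and the well-watered mean was 5851 ± 1415 (SD, n = 3). *LHCA4*, an antenna protein of photosystem I, also fell (-3.59). The member that rose was *LHCB4.3*, with 1343, 952 and 926 normalized counts in re-watered leaves, against 214, 199 and 216 in drought leaves, a log2 fold change of 2.33 with a standard error of 0.17 (adjusted p = 3.68e-10). *CAB1* (-2.38), *CAB2* (-4.85) and *CAB3* (-4.49) are near-identical, and their reads may be split between them.

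Of 22 core subunits of the photosystems 13 fell and none rose, with a median of -1.22, *PSAO* being lowest (-2.37). Of 15 measured genes of chlorophyll synthesis, 5 fell. Among them were *PORB*, the light-dependent protochlorophyllide reductase (-2.53), *CRD1*, a subunit of the ring-forming cyclase (-2.5), *CAO*, which makes chlorophyll b (-1.99), and *GUN5*, a magnesium chelatase subunit (-1.94). Chlorophyll breakdown had 10 measured genes with 1 higher and 1 lower, near the 11.9% and 9.16% of all genes tested. The lower one was lost without re-watered replicate 1 or drought replicate 2. *CLH1*, a chlorophyllase, had 9680, 14288 and 4549 normalized counts in re-watered leaves, against 619, 760.5 and 457 in drought leaves, a log2 fold change of 3.84 with a standard error of 0.66 (adjusted p = 4.96e-05), with all re-watered samples above all drought samples. In the Calvin cycle 2 of 18 rose, near the 11.9% of all genes tested that rose, and none fell, with a median of 0.23. Both, *RBCS1B* (1.09) and *RBCS2B* (1.29), encode small subunits of Rubisco and are near-identical in sequence. *RBCS1B* lost its call without re-watered replicate 1 (0.96), and *RBCS2B* without re-watered replicate 1 or 3 (1.13 in each) and without drought replicate 2 (1.25) or 3 (1.09).

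Starch and sucrose genes divided by step. Of 23 measured, 6 rose and 10 fell. *SEX1*, which phosphorylates starch for its breakdown, fell (-2.72), as did the disproportionating enzyme *DPE2* (-1.85) and the sucrose synthases *SUS1* (-2.57) and *SUS3* (-2.4). The sucrose exporters *SWEET11* (1.2) and *SWEET12* (1.26), the sucrose phosphate synthase *SPS4F* (2.28) and the cell wall invertase *CWINV1* (3.02) rose. In nitrogen metabolism the dual-affinity nitrate transporter and sensor *NRT1.1* had 2252, 2314 and 2797 normalized counts in re-watered leaves, against 96.5, 89.8 and 82.6 in drought leaves. Its 3 re-watered values were close together and far over any drought value, at a log2 fold change of 4.76 with a standard error of 0.15 (adjusted p = 4.1e-16), and well-watered leaves had 285 ± 45.0 (SD, n = 3). Nitrate reductase *NIA1* (-2.7) and nitrite reductase *NIR1* (-1.86) fell, and over the 12 measured nitrate genes 2 rose, or 1 without drought replicate 1, and 4 fell. Among markers that rise when cellular energy is low, the asparagine synthetase *ASN1* (-3.9) and the trehalose phosphate synthase-like *TPS11* (-3.36) were among 4 that fell, and 2 of 12 rose.

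Aquaporins let water pass through membranes. Of 16 measured members of the plasma membrane and tonoplast, 9 rose and 2 fell, with a median of 1.05. The count that rose was 7 without re-watered replicate 1 or 3, and 8 without drought replicate 2 or 3. *PIP3* (1.98), the tonoplast channel *GAMMA-TIP* (1.33) and *PIP2B* (2.2) were among the 9, although *PIP2B* and *RD28* (3.17) are near-identical and may share reads. *PIP2;5* fell (-3.3). Expansins, which loosen cell walls for growth, showed 4 higher and 5 lower of 15. *EXPA8* had 422, 85.3 and 335 normalized counts in re-watered leaves, against 23.9, 3.9 and 4.09 in drought leaves, a log2 fold change of 4.76 with a standard error of 0.55 (adjusted p = 3.03e-07). The lowest re-watered sample was replicate 2, still above all drought samples. The count of lower expansins was 3 without re-watered replicate 1, without drought replicate 1 and without drought replicate 2.

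Few listed genes of the TOR complex and of ribosome production and growth passed the test, where 21.1% of all genes tested did. In the TOR complex group 1 of 9 measured genes rose, near the 11.9% of all genes tested that rose. *TOR* itself, with reads of the endogenous gene and of the transgene counted together, had 8353, 14667 and 13532 normalized counts in re-watered leaves, against 13546, 11435 and 13951 in drought leaves, a log2 fold change of -0.13 with a standard error of 0.16 (adjusted p = 0.533). The re-watered and drought values overlapped. *S6K2*, a kinase that TOR activates, had 1347, 1810 and 1502 normalized counts in re-watered leaves, against 363, 614 and 367 in drought leaves, a log2 fold change of 1.83 with a standard error of 0.44 (adjusted p = 0.00152), with no overlap. None of the other 8 measured members of this group passed the test, among them *RAPTOR1* (-0.75) and *S6K1* (0.78). None of 16 nucleolar ribosome biogenesis genes passed limma, edgeR or DESeq2, nor did any of 9 cytosolic ribosomal proteins or of 11 cell cycle genes. The ribosomal protein group held only the 10 genes named as such in the reference names, 9 of them measured, and does not stand for the whole family. At an unadjusted p under 0.05 in limma, with no floor on the fold change, 4 nucleolar, 4 ribosomal protein and 1 cell cycle genes passed. The cell cycle count was 1 without re-watered replicate 3, without drought replicate 2 and under equal sample totals, array weights or 0.5 added before the logarithm. Of 13 autophagy genes *ATG5* alone passed (1.0), and it did not without re-watered replicate 2 (0.93) or 3 (0.96) or drought replicate 2 (0.86).

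Touch-responsive and rapid wound genes rose nearly as a whole, 18 of 19 with none lower and a median of 2.47. These genes respond within minutes to handling, calcium signals or wounding. *MYB15* had 620.0, 1359 and 779 normalized counts in re-watered leaves, against 2.87, 10.7 and 6.55 in drought leaves, a log2 fold change of 6.96 with a standard error of 0.79 (adjusted p = 2.55e-07). *ZAT12*, a zinc finger factor, had 2215, 2221 and 2198 normalized counts in re-watered leaves, against 48.8, 121 and 76.1 in drought leaves, a log2 fold change of 4.83 with a standard error of 0.57 (adjusted p = 4.39e-07). In both, drought replicate 2 was the highest drought sample, and every re-watered sample was far above it. *ERF13* had 2782, 3535 and 1496 normalized counts in re-watered leaves, against 9.56, 45.9 and 25.4 in drought leaves, a log2 fold change of 6.7 with a standard error of 0.83 (adjusted p = 8.58e-07), and *WRKY40* (3.42) and the calmodulin-like *TCH3* (2.24) also rose. *CML39*, with no read in drought leaves, was at least 98.4-fold higher in re-watered leaves (against a floor of 3 reads over the group). The median of this group was 4.03 in *GC::AtTOR* and 3.06 in WT.

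Salicylic acid defence genes also rose, 9 of 14 measured with a median of 1.82, and 1 was lower, or 0 without re-watered replicate 1 or drought replicate 2. The count of higher genes was 7 without re-watered replicate 3 or drought replicate 1. *PR1*, the standard marker of this pathway, had 145, 147 and 1415 normalized counts in re-watered leaves, against 0, 0.976 and 0 in drought leaves. Its ratio of re-watered to drought was 2433 (95% exact interval 436.1 to 96150, counting error only, 1 read in drought), and re-watered replicate 3 was far above the other re-watered samples. *PR2*, a glucanase, had 1401, 2549 and 4663 normalized counts in re-watered leaves, against 49.7, 174 and 115 in drought leaves, a log2 fold change of 4.66 with a standard error of 0.71 (adjusted p = 1.29e-05), with the highest value again in re-watered replicate 3. *PBS3* (2.98), *EDS5* (2.34) and *CBP60G* (2.22), which act in making salicylic acid or in switching on its synthesis, rose too. The member that fell was *NIMIN1*, which encodes a protein that binds NPR1 (-2.11), and it did not pass without re-watered replicate 1 (-1.76) or drought replicate 2 (-1.67). The jasmonate group had 4 of 20 higher and none lower, where 11.9% of all genes tested were higher. *LOX2*, the lipoxygenase at the start of jasmonate synthesis, had 48560, 80599 and 27915 normalized counts in re-watered leaves, against 12488, 17709 and 9736 in drought leaves, a log2 fold change of 1.89 with a standard error of 0.52 (adjusted p = 0.00417), with no overlap. The jasmonate count was 1 without re-watered replicate 2 or drought replicate 1, 2 without drought replicate 3, and 8 when the compared groups were fitted alone.

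Among genes of anthocyanin and flavonoid synthesis, 3 of 13 measured rose and 2 fell, with a median of 0.53. *PAP2*, a MYB activator of anthocyanin genes, had 380.2, 647 and 197 normalized counts in re-watered leaves, against 0.956, 0 and 3.27 in drought leaves, a log2 fold change of 7.49 with a standard error of 0.58 (adjusted p = 8.77e-10). *F3'H*, which sets the hydroxylation pattern of the pigments, had 1368, 2114 and 559 normalized counts in re-watered leaves, against 59.3, 201 and 159 in drought leaves, a log2 fold change of 3.23 with a standard error of 0.58 (adjusted p = 8.41e-05). Re-watered replicate 3 was lowest of its group in both genes, and no sample overlapped. *CHS*, the first enzyme of the pathway, had 5501, 6104 and 2045 normalized counts in re-watered leaves, against 1658, 3212 and 4264 in drought leaves, which overlap, at 0.53 with a standard error of 0.38 (adjusted p = 0.246); without re-watered replicate 3 it passed at 1.03. *FLS1*, the flavonol synthase, fell (-2.62) with its MYB activator *MYB111* (-1.97). The count of higher genes was 6 without re-watered replicate 3, 5 without drought replicate 2, and 5 in both edgeR and DESeq2 on recovered reads.

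**Figure D4:**
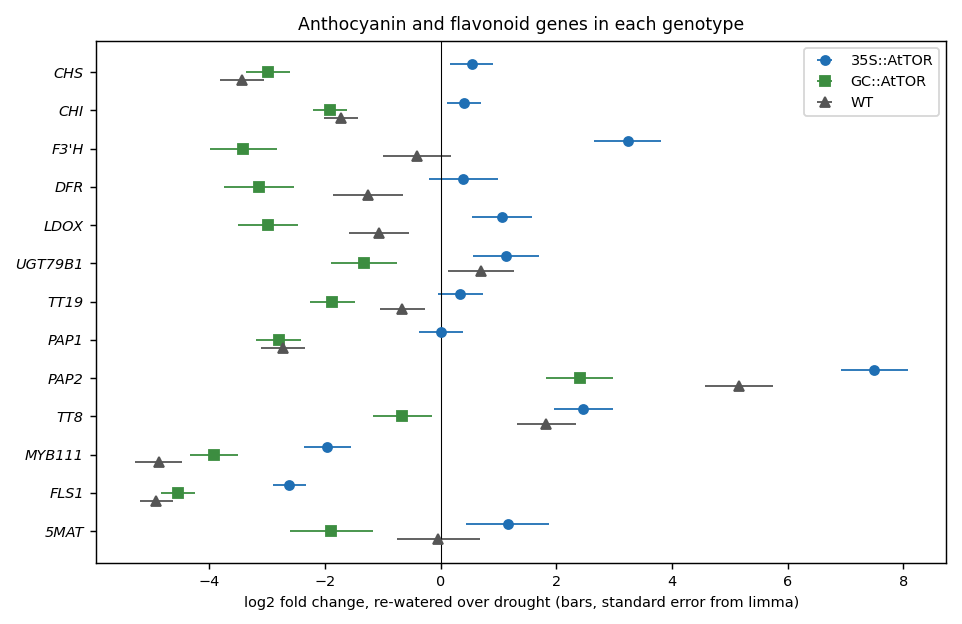
Log2 fold change of re-watered over drought leaves (horizontal axis; bars are the standard error from limma) for the 13 measured anthocyanin and flavonoid genes in *35S::AtTOR*, *GC::AtTOR* and WT. *F3'H* lies at 3.23 (*35S::AtTOR*), -3.41 (*GC::AtTOR*) and -0.41 (WT), and the *35S::AtTOR* point is rightmost for each gene.

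Glucosinolates, the sulphur-containing defence compounds of the cabbage family, split into their branches, with 6 of 17 higher and 6 lower. On the indolic side, *CYP79B2*, which converts tryptophan to its aldoxime, had 1042, 1084 and 1046 normalized counts in re-watered leaves, against 151, 208 and 119 in drought leaves, a log2 fold change of 2.76 with a standard error of 0.64 (adjusted p = 0.000974), and *CYP79B3* (2.16), *MYB51* (2.46) and *MYB34* (2.17) rose with it. On the aliphatic side, *CYP79F1* had 372, 668 and 396 normalized counts in re-watered leaves, against 5088, 3591 and 3454 in drought leaves, a log2 fold change of -3.11 with a standard error of 0.29 (adjusted p = 1.27e-08), and *MAM1* (-2.76), *BCAT4* (-2.51) and *MYB29* (-2.4) fell. *MYB28*, an aliphatic regulator, rose (1.14), a call lost without drought replicate 3 (0.97). The group had 4 higher without drought replicate 3, and 5 lower without drought replicate 1. For *CYP79B2* and *CYP79F1* alike, re-watered and drought samples did not overlap.

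Senescence genes rose in 7 and fell in 3 of 18 measured. *GLN1.4*, a cytosolic glutamine synthetase, had 298, 294 and 163 normalized counts in re-watered leaves, against 14.3, 11.7 and 9.0 in drought leaves, a log2 fold change of 4.28 with a standard error of 0.24 (adjusted p = 7.4e-12). All 3 re-watered samples of *GLN1.4* exceeded every drought sample by a wide margin. *SAG13* also rose (5.24), and the ABA-responsive NAC factor *RD26* fell (-3.08). *SAG29*, a sugar transporter gene with no read in re-watered leaves, was at least 41.1-fold lower. *HAI1*, described among the phosphatases, is also listed as a senescence gene. Among 7 measured heat shock genes 3 rose and 1 fell, *HSFA2* being at 1.8 and *HSP70* at -2.24. Of 15 antioxidant genes 3 rose and 3 fell, the copper/zinc superoxide dismutases *CSD1* (1.6) and *CSD2* (1.58) among those that rose.

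Cell type markers gave no uniform shift. Of 11 guard cell markers 4 rose and 2 fell, among them the inward potassium channel *KAT1* (1.29) and the outward channel *GORK* (-2.38). Their summed level was 4997 to 7961 normalized counts in re-watered leaves and 5784 to 8153 in drought leaves. The summed phloem markers lay at 6171 to 6539 in re-watered leaves and 6122 to 6473 in drought leaves, and the summed xylem markers at 125 to 314 in re-watered leaves and 211 to 376 in drought leaves. The epidermis sum was 2306 to 2930 in re-watered leaves and 9672 to 14830 in drought leaves, and it rested on *LTP1*, a lipid transfer protein gene of the epidermis. *LTP1* had 583, 513 and 495 normalized counts in re-watered leaves, against 7000, 9019 and 11734 in drought leaves, a log2 fold change of -4.09 with a standard error of 0.19 (adjusted p = 2.93e-13). The part of cell composition in the results above was not tested.

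The genes with the largest changes by size of log2 fold change were given by rule, 15 in each direction. Among the 15 highest were *AT5G21960*, an Integrase-type DNA-binding protein gene, with 1393, 1858 and 886 normalized counts in re-watered leaves, against 0, 3.9 and 0.818 in drought leaves, a log2 fold change of 9.31 with a standard error of 0.83 (adjusted p = 7.19e-09). *ORA59*, an AP2/ERF factor that joins jasmonate and ethylene signals, had 359.6, 437 and 228 normalized counts in re-watered leaves, against 0, 0.976 and 0 in drought leaves, a ratio of 1093 (95% exact interval 195.6 to 43220, 1 read in drought). *PDF1.2*, the defensin gene that ORA59 activates, had 215, 319.9 and 438 normalized counts in re-watered leaves, against 0.956, 0 and 1.64 in drought leaves, a ratio of 400.2 (136.5 to 1944, 3 reads in drought). For all 3 genes, the gap between re-watered and drought values follows from the rule. *TPS04*, which makes the precursor of a volatile homoterpene, had no drought read and was at least 659.4-fold higher, and *MDHAR* at least 283.6-fold higher.

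*MYB113*, a MYB gene close to *PAP2*, had a ratio of 682 (121.9 to 26990, 1 read in drought), and *MEE3* one of 436.1 (148.8 to 2118, 3 reads). The MATE transporter gene *AT3G23550* had a ratio of 951.9 (325.3 to 4620, 3 reads), and the myb-like *AT5G56840* one of 775.8 (214.3 to 6413, 2 reads). *AT1G15125*, a methyltransferase gene (7.89), *AT1G27020* (7.8), the GDSL lipase *AT1G54020* (7.36) and *AT3G28580* (7.09) completed the set with *PR1* and *PAP2*. Of these 15 genes, the drought group held 0 to 3 reads in 9 of them.

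Among the 15 lowest, *RD29B*, *LEA7*, *RAB18*, *LEA4-5*, *RD29A* and *LTP3* were described above. *TSPO*, a membrane protein gene related to the translocator protein, had 0, 5.56 and 4.33 normalized counts in re-watered leaves, against 325, 217 and 1323 in drought leaves, a log2 fold change of -7.12 with a standard error of 0.75 (adjusted p = 9.14e-08). *LBD39*, a LOB-domain factor that restrains nitrogen and anthocyanin genes, had 8.27, 0 and 33.7 normalized counts in re-watered leaves, against 844, 485 and 530.2 in drought leaves, a log2 fold change of -6.46 with a standard error of 0.79 (adjusted p = 7.11e-07). That no re-watered sample of *TSPO* or *LBD39* reached a drought sample follows from the rule. *HSFA6A*, a heat shock factor gene, held 3 re-watered reads and was 325.7-fold higher in drought leaves (111.2 to 1581), and the kinase gene *WNK9*, with 1 re-watered read, 951.5-fold higher (170.5 to 37610). *AT3G03341* held 1 re-watered read, and *AT1G49500* was at -6.49. The thioredoxin family genes *AT4G15690*, at least 120.8-fold lower in re-watered leaves, *AT4G15670*, at least 85.75-fold lower, and *AT4G15700* (-6.34) lie side by side and are near-identical, so their separate counts are uncertain.

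The response of *35S::AtTOR* was then set against that of WT and of *GC::AtTOR*. Re-watered over drought, *GC::AtTOR* had 3060 genes higher (17.1%) and 1819 lower (10.1%), and WT had 2713 higher (15.1%) and 2220 lower (12.4%). The difference of responses, *35S::AtTOR* minus WT, passed the test in 1727 genes (9.63%), 796 of them above 0 (4.44%) and 931 below (5.19%). The difference *35S::AtTOR* minus *GC::AtTOR* passed in 1600 genes (8.92%), 486 above 0 (2.71%) and 1114 below (6.21%). The last count moved with the samples: it was 2438 without *GC::AtTOR* drought replicate 1, 957 without *GC::AtTOR* drought replicate 3 and 910 when the 4 groups were fitted alone. It was 429 when the 4 groups were fitted alone with a replicate block. Both differences share the *35S::AtTOR* samples, so they are given side by side and not as independent evidence.

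**Figure D5:**
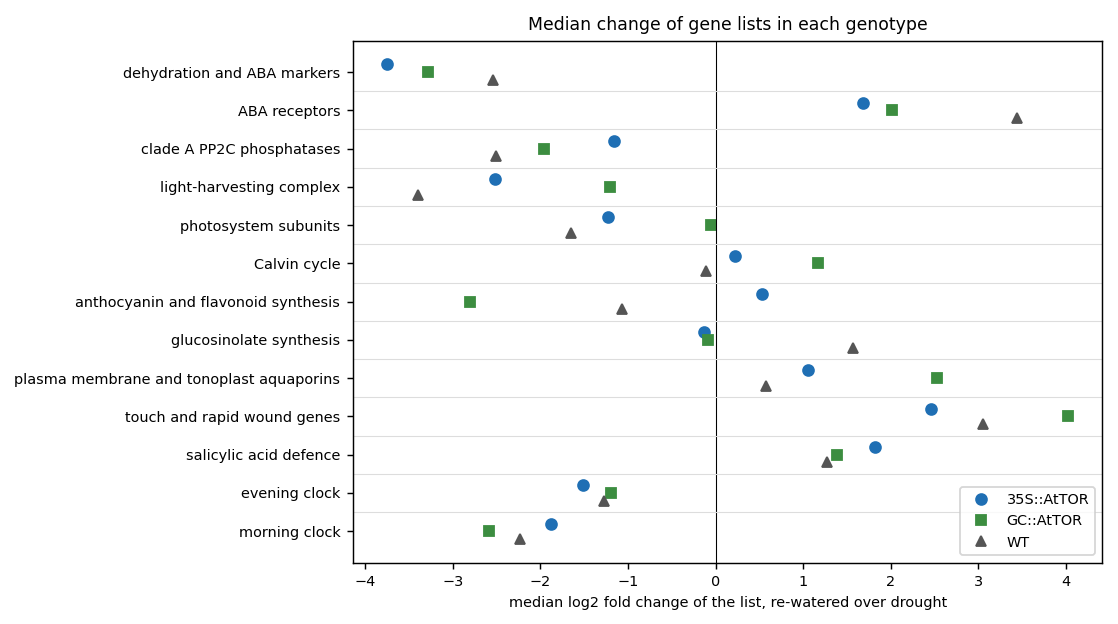
Median log2 fold change of re-watered over drought leaves (horizontal axis) for each gene group in *35S::AtTOR*, *GC::AtTOR* and WT, 1 line a group. The photosystem group lies at -1.22 (*35S::AtTOR*), -0.06 (*GC::AtTOR*) and -1.66 (WT), and the anthocyanin group at 0.53 (*35S::AtTOR*), -2.81 (*GC::AtTOR*) and -1.07 (WT).

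Among dehydration genes, 7 of 23 had a difference below that of WT and 2 above, and 1 was below and 4 above *GC::AtTOR*. *RD29A* averaged 613 ± 122 in re-watered and 42433 ± 5183 in drought *35S::AtTOR* leaves (SD, n = 3 each) and 8415 ± 2390 in re-watered and 48265 ± 8591 in drought WT leaves. The drought ranges were close and the re-watered level was far lower in *35S::AtTOR* than in WT, a difference of -3.58 with a standard error of 0.28 (adjusted p = 2.78e-08). *GC::AtTOR* was like *35S::AtTOR* here, with 738 ± 32.45 in re-watered and 55123 ± 14106 in drought leaves. The *RD29A* response of *35S::AtTOR* differed from that of *GC::AtTOR* by 0.07 (adjusted p = 0.879). *XERO2* (-3.53) and *COR47* (-2.44) also fell further in *35S::AtTOR* than in WT. *RAB18* did the opposite, at 2.73 with a standard error of 0.68 (adjusted p = 0.00577). *P5CS1* averaged 611 ± 222 in re-watered and 15290 ± 4836 in drought *35S::AtTOR* leaves and 103 ± 48.2 in re-watered and 28187 ± 7461 in drought WT leaves, a difference of 3.48 with a standard error of 0.50 (adjusted p = 5.32e-05).

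Most ABA receptor and phosphatase genes had smaller responses in *35S::AtTOR* than in WT. Of 7 receptors, 4 had a difference below WT and none above, and of 7 phosphatases 5 were above and none below. *PYL9* (0.59 against 0.05 in WT) and *PYL7* (-1.09 against -0.94 in WT) did not have the smaller response, and neither difference passed. Of 5 bZIP factors, 2 had a difference above WT and none below. *PYL4* averaged 229 ± 20.6 in re-watered and 29.0 ± 6.82 in drought *35S::AtTOR* leaves and 1088 ± 91.0 in re-watered and 6.18 ± 1.62 in drought WT leaves, a difference of -4.3 with a standard error of 0.32 (adjusted p = 1.9e-08). *PYL5* was at -4.47. *HAI1* averaged 49.1 ± 20.1 in re-watered and 1393 ± 930.2 in drought *35S::AtTOR* leaves and 14.8 ± 17.5 in re-watered and 2778 ± 842 in drought WT leaves, a difference of 3.37 with a standard error of 0.83 (adjusted p = 0.00522), and *ABI2* was at 2.93. The receptor median was 1.69 in *35S::AtTOR* and 3.44 in WT, and the phosphatase median -1.16 in *35S::AtTOR* and -2.51 in WT. Against *GC::AtTOR*, 3 receptors were below and 1 phosphatase above.

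The antenna and photosystem genes parted *35S::AtTOR* from *GC::AtTOR*. Of 19 antenna genes, 16 had a difference below *GC::AtTOR* and none above, where the group medians were -2.52 for *35S::AtTOR* and -1.21 for *GC::AtTOR*, and of 22 photosystem genes 14 were below. *LHCB3* averaged 1437 ± 455 in re-watered and 24200 ± 4669 in drought *35S::AtTOR* leaves and 4220 ± 1157 in re-watered and 14984 ± 7512 in drought *GC::AtTOR* leaves, a difference of -2.38 with a standard error of 0.47 (adjusted p = 0.00259). *PSBQ-2* was at -1.92. Against WT, 4 antenna genes were above, among them *LHCA4* (1.48) and *LHCB4.3* (1.75), and no photosystem gene differed. Calvin cycle genes had 7 of 18 below *GC::AtTOR*, and aquaporins 7 of 16 below and 1 above, *PIP1C* being at -2.64.

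Responses of anthocyanin genes were above those of both other genotypes. Of 13 measured, 13 had a difference above *GC::AtTOR* and 8 above WT, with none below in either. *F3'H* averaged 1347 ± 778 in re-watered and 139.7 ± 72.8 in drought *35S::AtTOR* leaves, 22.8 ± 10.5 in re-watered and 249 ± 115 in drought *GC::AtTOR* leaves and 199.6 ± 161 in re-watered and 251 ± 165 in drought WT leaves. Its difference was 3.65 with a standard error of 0.82 (adjusted p = 0.00284) from WT, and 6.65 with a standard error of 0.82 (adjusted p = 0.000116) when set against *GC::AtTOR*. *CHS*, whose own response did not pass, averaged 4550 ± 2190 in re-watered and 3045 ± 1311 in drought *35S::AtTOR* leaves and 707 ± 439.9 in re-watered and 6896 ± 1063 in drought WT leaves, with a difference of 3.97 with a standard error of 0.54 (adjusted p = 3.19e-05) from WT and one of 3.52 with a standard error of 0.54 (adjusted p = 0.000606) when set against *GC::AtTOR*. *CHIL*, a chalcone isomerase-like gene, was at 4.32 from WT and 5.35 from *GC::AtTOR*, and *PAP2* at 5.09 from *GC::AtTOR*. For *MYB113* the difference from WT (4.14) was lost in edgeR and DESeq2 on recovered reads.

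Several nutrient and sugar markers had lower responses in *35S::AtTOR* than in WT. *NRT1.1* averaged 2454 ± 298 in re-watered and 89.7 ± 6.95 in drought *35S::AtTOR* leaves and 10576 ± 483 in re-watered and 63.2 ± 12.5 in drought WT leaves, a difference of -2.62 with a standard error of 0.22 (adjusted p = 7.08e-08). In *GC::AtTOR* its means were close to those of *35S::AtTOR*, at 2165 ± 123 in re-watered and 82.9 ± 12.7 in drought leaves. *DIN10*, a raffinose synthase family gene induced by darkness and sugar loss, averaged 488 ± 296 in re-watered and 297 ± 222 in drought *35S::AtTOR* leaves, 1157 ± 298 in re-watered and 19.1 ± 6.66 in drought *GC::AtTOR* leaves and 4026 ± 674 in re-watered and 23.5 ± 7.77 in drought WT leaves. It was at 0.71 with a standard error of 0.54 (adjusted p = 0.282) within *35S::AtTOR*, which did not pass, and at 1.41 without re-watered replicate 2, which did. It differed by -6.69 from WT and -5.17 from *GC::AtTOR*. Of the 12 low-energy markers 4 were below WT and none above, and 6 were below *GC::AtTOR* and 1 above. *HSP90.1*, a cytosolic chaperone, averaged 181 ± 10.3 in re-watered and 214 ± 14.6 in drought *35S::AtTOR* leaves, 99.1 ± 25.6 in re-watered and 289 ± 93.7 in drought *GC::AtTOR* leaves and 1971 ± 559 in re-watered and 269 ± 13.0 in drought WT leaves, a difference of -3.08 from WT and 1.28 from *GC::AtTOR*. *MAM3*, which elongates the chains of aliphatic glucosinolates, was at -5.75 from WT, and *PR2* at 4.62 and *EXPA8* at -4.78 from *GC::AtTOR*.

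By a similar rule, the 5 largest differences in each direction were named among those whose responses did not overlap between the compared genotypes. *THI2.1* (5.12) and *MYB113* (4.14) also passed against WT with differences larger than that of *AT3G53980*. Their responses overlapped those of WT, so the rule left them out. Against WT the 5 named were *GRP9* (6.29), *AAE12* (5.46), *GRF7*, a growth-regulating factor (5.23), *CHIL* and *AT3G53980* (4.0) above. Below were *AT5G62360*, an invertase/pectin methylesterase inhibitor gene (-9.35), the galactinol synthase *GolS3* (-8.43), *AT4G21870* (-7.97), the AP2/ERF gene *ABR1* (-7.27) and *AT2G38240* (-7.11). *AT5G62360* averaged 127 ± 52.0 in re-watered and 225 ± 126 in drought *35S::AtTOR* leaves and 5912 ± 922 in re-watered and 21.0 ± 16.6 in drought WT leaves. Against *GC::AtTOR* they were *F3'H*, *GRF7* (5.57), the sulfotransferase *ST2A* (5.51), *CHIL* and the thionin *THI2.1* (5.26) above, and *AT5G62360* (-6.36), *RAV1* (-6.26), *ZF1* (-5.93), *AT3G06070* (-5.85) and *AT2G10940* (-5.51) below. *GRF7* averaged 24.9 ± 7.58 in re-watered and 15.4 ± 15.1 in drought *35S::AtTOR* leaves, 8.87 ± 3.4 in re-watered and 364 ± 319.9 in drought *GC::AtTOR* leaves and 5.24 ± 3.44 in re-watered and 147 ± 137 in drought WT leaves.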

How the data were processed

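The authors made TruSeq libraries from leaf RNA and read them on an Illumina instrument. Per the labels and the methods, CASAVA, Trimmomatic, STAR, Salmon, tximport and DESeq2 were used with TAIR10, and versions were not given in the sources used here. The signal values deposited by the authors are normalized read counts per gene, divided by a size factor for each sample and not by gene length. Whole reads were recovered from the step of each sample in 26 of 27 samples, and 100% of values came out whole within 0.1 reads; *35S::AtTOR* well-watered replicate 1 was not recovered and was left out of count tests. All columns matched a sample, so 0 were set aside. Names matched 32548 of the gene identifiers.

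Genes that averaged 10 or more in either group were fitted on log2(normalized count + 1) with limma 3.58.1 (R 4.3.3), with eBayes and a mean trend, in 1 model of the 9 groups over 27 samples. Calls needed an adjusted p under 0.05 (Benjamini-Hochberg over 17941 genes) and a log2 fold change beyond 1. The difference of responses was a contrast of the same model. Named genes were *TOR*, members of 41 gene lists, the 15 most raised and the 15 most lowered called genes whose higher group averaged 100 or more and whose samples did not overlap, and the 5 in each direction for each difference, with that mean in at least 1 of the 4 groups. Genes named for a difference also had responses that did not overlap between the compared genotypes. Members and lists were chosen with earlier results of these data known. Bounds for genes at 0 used a floor of 3 reads over the group, and ratios on 1 to 3 reads carry 95% exact intervals that cover counting error only.

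Alternatives were added constants of 0.5 and 5, no filter, a mean of at least 50, the compared groups alone, robust eBayes, array weights, a replicate block, a stricter adjusted p (0.01), equal sample totals, each replicate left out, dropping the fold-change floor, and count tests on the recovered reads (edgeR 4.0.16, DESeq2 1.42.0). edgeR without *35S::AtTOR* re-watered replicate 1 was chosen after seeing the data. Tested on simulated data for the re-watered against drought comparison (17024 genes), limma called 20 of 50 genes changed 2-fold, 50 of 50 changed 3-fold and 11 of 16824 unchanged genes. A 2-fold change lies on the threshold itself, so many such genes miss it at any power. Changed genes were drawn from those with a drought mean of at least 50, so recovery at lower means was not tested.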

Additional observations from a re-analysis of the deposited data

Results flagged for a closer look

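The responses of *35S::AtTOR* to re-watering differed from those of WT in 1727 genes and from those of *GC::AtTOR* in 1600 genes, by the limma test of the difference itself. The differences printed in the text are repeated here on the log2 scale, *35S::AtTOR* minus the other genotype. They are a selection, and further genes named in the text also passed. Both sets share the *35S::AtTOR* samples.

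Against WT, the printed differences above 0 were those of *RAB18* (2.73), *P5CS1* (3.48), *HAI1* (3.37), *ABI2* (2.93), *LHCA4* (1.48), *LHCB4.3* (1.75), *F3'H* (3.65), *CHS* (3.97), *CHIL* (4.32), *MYB113* (4.14), *GRP9* (6.29), *AAE12* (5.46), *GRF7* (5.23) and *AT3G53980* (4.00). The printed differences below 0, where the *35S::AtTOR* response was the lower, were those of *RD29A* (-3.58), *XERO2* (-3.53), *COR47* (-2.44), *PYL4* (-4.30), *PYL5* (-4.47), *NRT1.1* (-2.62), *DIN10* (-6.69), *HSP90.1* (-3.08), *MAM3* (-5.75), *AT5G62360* (-9.35), *GolS3* (-8.43), *AT4G21870* (-7.97), *ABR1* (-7.27) and *AT2G38240* (-7.11).

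Against *GC::AtTOR*, the printed differences above 0 were those of *F3'H* (6.65), *CHS* (3.52), *CHIL* (5.35), *PAP2* (5.09), *HSP90.1* (1.28), *PR2* (4.62), *GRF7* (5.57), *ST2A* (5.51) and *THI2.1* (5.26). The printed differences below 0, where the *35S::AtTOR* response was the lower, were those of *LHCB3* (-2.38), *PSBQ-2* (-1.92), *PIP1C* (-2.64), *DIN10* (-5.17), *EXPA8* (-4.78), *AT5G62360* (-6.36), *RAV1* (-6.26), *ZF1* (-5.93), *AT3G06070* (-5.85) and *AT2G10940* (-5.51).

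*MYB113* rested on 1 read in drought *35S::AtTOR* leaves, and its difference from WT did not pass in edgeR or DESeq2.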

How the results depend on the processing

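The counts of genes higher and lower kept within 1.5 times of 2134 and 1643 under 20 of 21 alternatives each, edgeR giving 2196 higher and 1611 lower and DESeq2 2209 and 1593. Equal sample totals gave 2548 higher and 1350 lower. Without the floor on the fold change the counts were 4838 higher and 4864 lower, and 4701 and 3887 for the differences from WT and *GC::AtTOR*. At an adjusted p under 0.01 those differences numbered 1114 and 799, and fitting the groups alone gave 910 for *GC::AtTOR*. Leaving out each replicate in turn gave 1975 to 2178 higher, 1572 to 1775 lower, 1294 to 1924 for WT and 957 to 2438 for *GC::AtTOR*. edgeR without re-watered replicate 1, chosen after seeing the data, gave 2173 higher and 1598 lower. Counts of several other gene groups also moved when a replicate was left out, and not all of these moves are given. Among 199 gene values in the text, 178 kept their call under all alternatives run and 21 did not. Of the values that passed the test, 0 changed sign. Sign changes of values that did not pass, such as that of *TOR*, were not counted. Same-numbered replicates did not deviate together (correlations of -0.00287, 0.0413 and -0.0938), so replicate numbers were not taken as pairs. With a replicate block the counts were 2152 higher and 1652 lower, and 2047 and 1555 with the compared groups alone, where the differences numbered 1268 for WT and 429 for *GC::AtTOR*. The block used the replicate numbers of the labels. In WT and *GC::AtTOR* these join drought and re-watered libraries whose library numbers mostly differ. Depth limits low genes of re-watered replicate 1, where a single read is 4.13 normalized counts.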
